A study of Mus musculus with 2 samples.

Results

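DNA replication and mitosis genes were followed in mouse macrophages sorted from the lamina propria of the colon, a tissue layer under the gut epithelium. The 58 genes were listed by name for their known roles in DNA synthesis, in mitosis and in control of the cell cycle. A gene took its value from the probe sets annotated to it alone, which 56 of the 58 had, among 19938 genes measured that way. The 56 genes had 60 such probe sets, and 3 more probe sets were annotated to a member together with another gene. One of those shared probe sets was the only probe set for Cdkn1a, and the signal of Ccnb1 was not analysed here. The DSS group was 1 array of macrophages from mice given 3% (wt/vol) dextran sulfate sodium, a polymer that injures the colon lining, in their water for 5 days. The control group was 1 array of macrophages from mice that drank plain water over the same 5 days. Cells of both groups were sorted as CD45+IAb+CD11b+F4/80+CD103-, and strain, age, sex and the number of mice behind an array are not given in the labels. With 1 array a group there was no replicate error, so no test between conditions was possible and every difference compares these 2 arrays.

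A dividing cell first licenses its replication origins by loading the MCM helicase, then fires them in S phase, when polymerases, the sliding clamp and the enzymes that supply deoxynucleotides copy the DNA. In mitosis, cyclin B with Cdk1, the Aurora and Polo kinases, kinesins and kinetochore proteins separate the chromosomes, and the anaphase-promoting complex ends the process by marking proteins for destruction. Cyclins D and E with their kinases start the cycle by releasing E2F factors from the Rb protein family, and the inhibitors encoded by Cdkn1a, Cdkn1b and Cdkn2c hold these kinases back. E2F factors act at promoters of many replication genes. Many mitotic promoters instead carry a CHR (cell cycle genes homology region) element with CCAAT boxes, which are bound by the DREAM or MuvB complexes and by NF-Y. Macrophages of the adult colon are largely renewed from blood monocytes, and dividing cells are usually a minority among them.

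Promoter windows are shown for a pair of replication genes, Mcm6 and Mcm5, for the mitotic genes Kif23, Ccnb2 and Aurka, and for the inhibitor gene Cdkn1b, because these genes carry the main differences described below or show the motifs of their class. Sequences are from RefSeq, assembly GRCm38.p6, and run 5′ to 3′ on the strand of the gene, from 250 bases before to 30 bases after the annotated start. Capitals mark an E2F motif (TTTCCCGC, TTTGGCGC, TTTCGCGC or TTTGCCGC), a CHR motif (TTTGAA or TTCGAA) or a CCAAT box, each read on both strands, and adjoining capitals are overlapping copies.
Mcm6: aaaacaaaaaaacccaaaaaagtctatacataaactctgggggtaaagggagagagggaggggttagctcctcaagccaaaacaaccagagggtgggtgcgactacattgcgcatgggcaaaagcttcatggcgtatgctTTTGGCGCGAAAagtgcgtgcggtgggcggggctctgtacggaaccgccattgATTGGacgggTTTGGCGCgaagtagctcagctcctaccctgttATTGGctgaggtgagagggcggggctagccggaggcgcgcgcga
Mcm5: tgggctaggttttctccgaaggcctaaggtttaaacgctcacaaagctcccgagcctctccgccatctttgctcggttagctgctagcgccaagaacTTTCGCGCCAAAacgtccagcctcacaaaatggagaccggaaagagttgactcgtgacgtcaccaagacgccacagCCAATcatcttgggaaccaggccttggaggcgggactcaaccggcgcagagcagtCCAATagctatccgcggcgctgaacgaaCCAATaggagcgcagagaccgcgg
Kif23: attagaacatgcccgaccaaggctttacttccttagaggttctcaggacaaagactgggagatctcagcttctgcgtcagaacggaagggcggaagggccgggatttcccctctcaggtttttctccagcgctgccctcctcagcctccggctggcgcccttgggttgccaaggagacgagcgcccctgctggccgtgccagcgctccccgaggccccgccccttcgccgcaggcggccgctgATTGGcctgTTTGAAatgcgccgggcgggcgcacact
Ccnb2: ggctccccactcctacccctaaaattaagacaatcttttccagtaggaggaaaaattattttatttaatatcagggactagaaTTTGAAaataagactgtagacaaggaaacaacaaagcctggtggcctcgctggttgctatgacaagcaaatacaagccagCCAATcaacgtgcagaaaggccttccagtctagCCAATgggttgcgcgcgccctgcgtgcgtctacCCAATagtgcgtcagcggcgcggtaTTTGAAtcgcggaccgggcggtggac
Aurka: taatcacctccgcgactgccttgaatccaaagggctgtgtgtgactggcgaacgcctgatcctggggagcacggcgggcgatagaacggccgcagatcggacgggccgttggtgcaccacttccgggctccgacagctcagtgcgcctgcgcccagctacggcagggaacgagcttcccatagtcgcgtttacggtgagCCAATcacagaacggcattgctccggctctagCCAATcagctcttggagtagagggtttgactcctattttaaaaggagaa
Cdkn1b: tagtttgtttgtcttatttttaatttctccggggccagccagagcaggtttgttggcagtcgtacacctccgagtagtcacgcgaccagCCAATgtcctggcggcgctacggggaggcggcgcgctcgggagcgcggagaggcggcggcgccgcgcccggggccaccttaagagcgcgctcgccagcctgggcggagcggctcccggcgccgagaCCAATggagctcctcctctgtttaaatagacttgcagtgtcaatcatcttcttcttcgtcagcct
The Mcm6 window lies at chr1:128359676-128359955 on the minus strand and holds 3 E2F matches, of which the first begins 110 bases before the start, and 2 CCAAT boxes. The Mcm5 window, chr8:75109259-75109538 on the plus strand, holds 2 overlapping E2F matches and 3 CCAAT boxes. The Kif23 window, chr9:61946770-61947049 on the minus strand, holds a CCAAT box 7 bases before the start and 1 CHR match that begins at base 3 of the transcript. The Ccnb2 window, chr9:70421525-70421804 on the minus strand, holds 3 CCAAT boxes at 87, 54 and 21 bases before the start and 2 CHR matches, 1 of them at base 5 of the transcript. The Aurka window, chr2:172370541-172370820 on the minus strand, holds 2 CCAAT boxes and no match to the other motifs. The Cdkn1b window, chr6:134920151-134920430 on the plus strand, also holds 2 CCAAT boxes and neither an E2F nor a CHR match.

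Across the members the motifs divided by role. RefSeq windows were matched by symbol for 48 of the 58 genes, including Cdkn1a and Ccnb1, which had no signal value of their own. There were 57 windows because some genes have several starts. An E2F match lay in 8 of 27 replication windows (29.6%) and in 1 of 19 mitotic windows (5.26%), against 2.12% of all 32851 windows of the same length. A CHR match lay in 13 of 19 mitotic windows (68.4%) and in 5 of 27 replication windows (18.5%), against 18.4% of all windows. CCAAT boxes lay in 17 of 19 mitotic windows (89.5%) and in 16 of 27 replication windows (59.3%), against 36.1% of all windows. Windows of a gene can overlap, as those of Prc1 do, and a match is a stretch of letters, not a shown binding site.

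**Figure D1:**
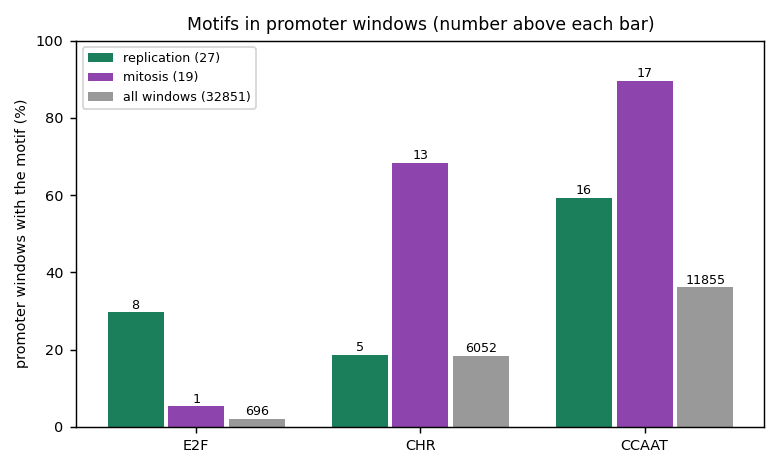
Share of promoter windows (y axis, percent) that hold an E2F, CHR or CCAAT motif, for replication genes (27 windows), mitotic genes (19 windows) and all windows (32851); the number above each bar counts windows. E2F matches are most frequent in the replication windows (29.6%) and CHR matches in the mitotic windows (68.4%).

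Most members had a lower signal on the DSS array, by small amounts. Of the 56 measured genes, 46 (82.1%) were lower on the DSS array, 8 were higher and 2 (Cdt1 and Bub1) had identical deposited values on both arrays, while 58.6% of all genes were lower. The median difference (log2 DSS minus log2 control) was -0.24 for the members and -0.06 for all genes. At a size of 1.5-fold, 7 of 56 members (12.5%) were lower, against 5.33% of all genes, and 4 (7.14%) were higher, against 5.76% of all genes, so the share of higher members lay near that of all genes. The other 45 lay within 1.5-fold. At 2-fold, 1 member (Kif23) was lower and 0 were higher, against 1.72% and 2.25% of all genes. Brighter genes differ more, so the counts were also taken over the 43 members whose mean signal was at or above the mean of the array medians (5.79 on the DSS array and 5.90 on the control array). Of these, 6 (14%) were at least 1.5-fold lower against 8.72% of the 9881 genes as bright, 4 (9.30%) were higher against 10.4%, and 34 (79.1%) were lower by any amount against 51.2%. In these bulk samples, fewer dividing cells and less of these RNAs per cell cannot be told apart.

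The scale of the arrays bears on these counts, since many differences were small. The robust SD of the differences over all genes was 0.27. The pooled SD between probe sets of the same gene was also 0.27, in 591 genes with several bright probe sets. Centring each array on its median moves every difference up by 0.11, so the values here are best read against the median of all genes. After median centring, 39 of 56 members (69.6%) were lower, against 42.3% of all genes, and 4 members (7.14%) were at least 1.5-fold lower, against 3.70% of all genes. After loess centring, 41 (73.2%) were lower, against 50.7% of all genes, and 6 (10.7%) were at least 1.5-fold lower, against 4.80% of all genes.

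**Figure D2:**
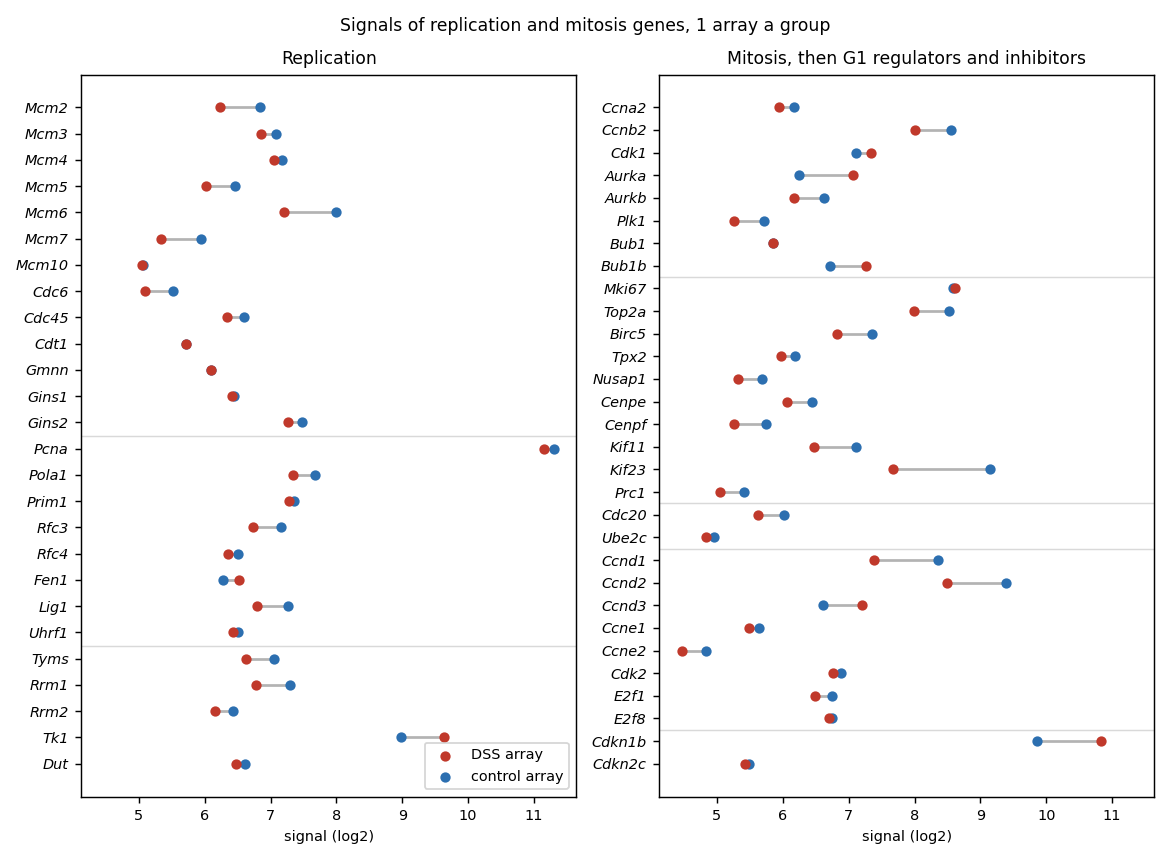
Log2 signal (x axis) of each of the 56 measured genes on the DSS array (red) and the control array (blue), in the order of their roles, with grey lines between role groups. Kif23, Ccnd1, Ccnd2 and Mcm6 have the longest gaps with the DSS array lower, and Cdkn1b and Aurka the longest with it higher.

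Marker genes of other cells moved between the same arrays. They are counted at 1.5-fold, a size that 5.76% of all genes passed upwards and 5.33% downwards. F4/80 (Adgre1) read 10.82 on the DSS array and 11.65 on the control array, and the CD45 gene Ptprc read 11.94 on the DSS array and 11.54 on the control array. RNA of the other positive sort antigens read 12.13 in DSS and 11.99 in control for H2-Ab1 and 10.20 in DSS and 9.59 in control for the CD11b gene Itgam, and that of Itgae, the CD103 gene used for exclusion, was under the medians of both arrays. Of 18 measured neutrophil genes, 17 were at least 1.5-fold higher in DSS and 0 lower, and their summed linear signal was 37700 on the DSS array and 2250 on the control array. Of 13 monocyte genes, 12 were higher and 1 lower, with sums of 24300 in DSS and 5530 in control. Of 22 resident macrophage genes, 0 were higher and 20 lower, with sums of 16200 in DSS and 43700 in control. Of 14 genes of granulocyte and monocyte precursors, the dividing stage of these lineages in bone marrow, 3 were higher and 0 lower, with sums of 7770 in DSS and 5290 in control, or 4830 in DSS and 5240 in control without Chil3, a count taken after the values were seen. Those 3 were Chil3 (11.52 in DSS, 5.62 in control), which is also on the monocyte list, Kit (6.71 in DSS, 5.75 in control) and Flt3 (7.22 in DSS, 6.28 in control). The sum without Chil3 rested mostly on Cd63 (12.02 in DSS, 12.19 in control), the brightest of the 13 genes left. By any amount, 7 of those 13 were higher and 6 lower. On both arrays 8 of the 14 were under the medians, among them the granule genes Mpo, Elane and Ctsg, while the granule gene Prtn3 (6.20 in DSS, 5.94 in control) and Cebpe (6.12 in DSS, 5.90 in control) lay just above them. Epithelial genes were higher for 6 of 20 and lower for 0 (sums of 2500 in DSS and 1430 in control), with 7 of the 20 under both medians, among them Epcam and the stem cell gene Lgr5, and 7 above both, among them Krt8 (8.05 in DSS, 7.97 in control) and Car1 (8.84 in DSS, 8.0 in control). The antimicrobial genes Reg3b (9.32 in DSS, 5.03 in control) and Reg3g (7.20 in DSS, 4.79 in control) were above the median in DSS alone. T and NK genes were higher for 2 of 15 and lower for 4 (1010 in DSS and 2090 in control), with 9 of the 15 under both medians, among them Cd3d, Cd3e and Cd3g. The 4 lower genes, all above the median in control, were Cd28 (-2.85), Cd4 (-1.65), Il7r (-1.42) and Cd2 (-1.27). The 2 higher genes, both under the median in control, were Gzma (1.68) and Gzmb (0.85). B and plasma cell genes were higher for 2 of 12 and lower for 1 (2580 in DSS and 2800 in control), with 4 of the 12 under both medians (Ms4a1, Cd79a, Pax5 and Blk) and 7 above both, among them Jchain (10.52 in DSS, 10.79 in control), Sdc1 (7.45 in DSS, 6.15 in control) and Cd79b (6.82 in DSS, 6.71 in control). Dendritic cell genes were higher for 5 of 14 and lower for 3 (6950 in DSS and 4460 in control), and stromal and endothelial genes were higher for 3 of 14 and lower for 0 (2050 in DSS and 2000 in control). The part of these cells in the differences of the replication and mitosis genes was not tested.

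Among replication genes lower on the DSS array, the 3 with the largest differences encode subunits of the helicase that unwinds DNA at the fork. Mcm6, a subunit of the MCM2-7 ring (probe set 10357436), read 7.20 on the DSS array and 7.99 on the control array, a difference of -0.79 or 1.73-fold lower, and 2.87% of all genes had a difference that low or lower. Mcm7 read 5.34 in DSS and 5.95 in control (-0.61), where the DSS signal was under the array median, and Mcm2 read 6.24 in DSS and 6.84 in control (-0.60). The differences of the ring subunits were unequal in size, but each subunit was read by 1 probe set. Probe sets of the same gene differed by a pooled SD of 0.27, and inequality between the subunits was not tested. Mcm5 read 6.02 in DSS and 6.46 in control (-0.44), Mcm3 read 6.86 in DSS and 7.09 in control (-0.23), and Mcm4 read 7.06 in DSS and 7.18 in control (-0.12). All 6 ring subunits were lower on the DSS array and kept that sign under both centrings. Mcm4 was then close to no difference, at -0.01 after median centring and -0.06 after loess centring.

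The genes that load and fire the helicase had smaller differences than Mcm6, Mcm7 and Mcm2, though not than every ring subunit. Cdc6, an ATPase that loads the ring at origins, read 5.10 in DSS and 5.52 in control (-0.42), both under the array medians. Cdt1, its loading partner, read 5.71 on both arrays, and Gmnn, which encodes the Cdt1 inhibitor geminin, read 6.10 on both and was lower in DSS only beyond the second decimal. Cdc45, which joins the ring to form the active helicase, read 6.34 in DSS and 6.59 in control. The GINS subunit genes Gins1 and Gins2 had differences of -0.03 and -0.21. Mcm10, which acts when origins fire, read 5.05 in DSS and 5.07 in control, under both medians. Of the 13 licensing and helicase genes, 3 (23.1%) were at least 1.5-fold lower, against 5.33% of all genes, and 0 higher. Their median difference was -0.23.

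The 8 genes of the fork machinery lay within 1.5-fold, as did 17727 of all 19938 genes. Lig1, the ligase that seals Okazaki fragments, read 6.80 in DSS and 7.27 in control (-0.46). Rfc3, a subunit of the clamp loader, read 6.73 in DSS and 7.16 in control (-0.42), and Rfc4, another subunit, had a difference of -0.16. Pola1, the catalytic subunit of the priming polymerase alpha, read 7.34 in DSS and 7.68 in control, and the primase gene Prim1 read 7.28 in DSS and 7.36 in control. Fen1, the flap nuclease of lagging-strand synthesis, was higher at 6.52 in DSS and 6.28 in control. Pcna, the sliding clamp, was bright on both arrays and differed little. Its probe set 10461391 read 11.15 in DSS and 11.30 in control, and its other probe set, 10487930, had a difference of -0.16. Uhrf1, which carries DNA methylation over to the new strand, read 6.43 in DSS and 6.50 in control. The sign of Uhrf1 turned under both centrings and that of Prim1 under median centring. The 8 genes had a median difference of -0.16.

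Genes for nucleotide supply were lower on the DSS array apart from Tk1. Rrm1, the large subunit of ribonucleotide reductase, read 6.78 in DSS and 7.30 in control (-0.53), and the small subunit gene Rrm2 read 6.16 in DSS and 6.43 in control (-0.27). Tyms, thymidylate synthase, read 6.62 in DSS and 7.06 in control (-0.45), and Dut, which removes dUTP, had a difference of -0.15. Tk1, thymidine kinase, had 2 probe sets that disagreed. The brighter, 10582809, read 9.63 in DSS and 8.98 in control (0.64, 1.56-fold higher), and the other, 10393431, read 7.81 in DSS and 7.95 in control (-0.14). Probe set numbers on this array follow chromosome order, in that 96.8% of 21698 probe sets lie on the chromosome most common among their 20 nearest neighbours by number. Tk1 lies on chromosome 11, as do all 20 neighbours of the lower-reading 10393431, whereas 14 of the neighbours of 10582809 lie on chromosome 8. Direction for Tk1 therefore turned with the probe set, and the count of members at least 1.5-fold higher was 3 when probe sets with such neighbours were left out, a setting chosen after the data were seen. The Pcna probe set 10461391 likewise had 19 neighbours on chromosome 19, while Pcna lies on chromosome 2, but both Pcna probe sets gave the same values to within 0.01.

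Among mitotic cyclins and kinases the directions were mixed. Aurka, the Aurora kinase of spindle poles (probe set 10490104), read 7.06 in DSS and 6.24 in control, a difference of 0.82 or 1.77-fold higher, and 96.8% of all genes had a difference that high or lower. Its relative Aurkb, the kinase of the chromosomal passenger complex, went the other way at 6.17 in DSS and 6.62 in control (-0.45). The spindle checkpoint gene Bub1b read 7.26 in DSS and 6.72 in control (0.54), and the related kinase gene Bub1 read 5.85 on both arrays. Cdk1, the kinase that drives entry into mitosis, read 7.34 in DSS and 7.11 in control (0.22). The cyclin genes of that kinase were lower, with Ccnb2 at 8.0 in DSS and 8.56 in control (-0.56) and Ccna2 at 5.94 in DSS and 6.17 in control (-0.22). Plk1, the Polo kinase, read 5.26 in DSS and 5.71 in control, under both medians. The median of the 8 measured genes was -0.11. Of them, 1 (12.5%) was at least 1.5-fold higher, against 5.76% of all genes, and 0 lower.

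Genes of the spindle, kinetochore and mitotic chromosome were lower more evenly. Kif23, the kinesin of the central spindle needed for cytokinesis (probe set 10594251), read 7.68 in DSS and 9.15 in control, a difference of -1.47 or 2.77-fold lower. It had the largest difference of all members in either direction, and 0.752% of all genes had a difference that low or lower. Its central spindle partner Prc1 read 5.05 in DSS and 5.41 in control, under both medians. Kif11, the kinesin that separates spindle poles, read 6.47 in DSS and 7.11 in control (-0.64, 1.56-fold lower). Top2a, the topoisomerase that untangles sister chromosomes, read 7.99 in DSS and 8.53 in control (-0.54), while its other probe set, 10390746, read 4.70 in DSS and 4.20 in control, under both medians. The 2 probe sets that Top2a shares with Hibadh each had a difference of -0.14. Birc5, survivin of the passenger complex, read 6.83 in DSS and 7.35 in control (-0.52), and the motor Cenpe and kinetochore protein Cenpf had differences of -0.40 and -0.47. The spindle assembly genes Tpx2 and Nusap1 had differences of -0.20 and -0.36. Signals of Cenpf and Nusap1 were under both medians. Mki67, the gene of the proliferation antigen Ki-67, read 8.61 in DSS and 8.58 in control, a difference of 0.03 that turned negative under loess centring. In this group of 10 genes, 2 (20%) were at least 1.5-fold lower, against 5.33% of all genes, and 0 higher, with a median of -0.44. The anaphase genes Cdc20, an activator of the anaphase-promoting complex, and Ube2c, its ubiquitin-conjugating enzyme, had differences of -0.40 and -0.11, with the DSS signal of Cdc20 and both signals of Ube2c under the medians.

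**Figure D3:**
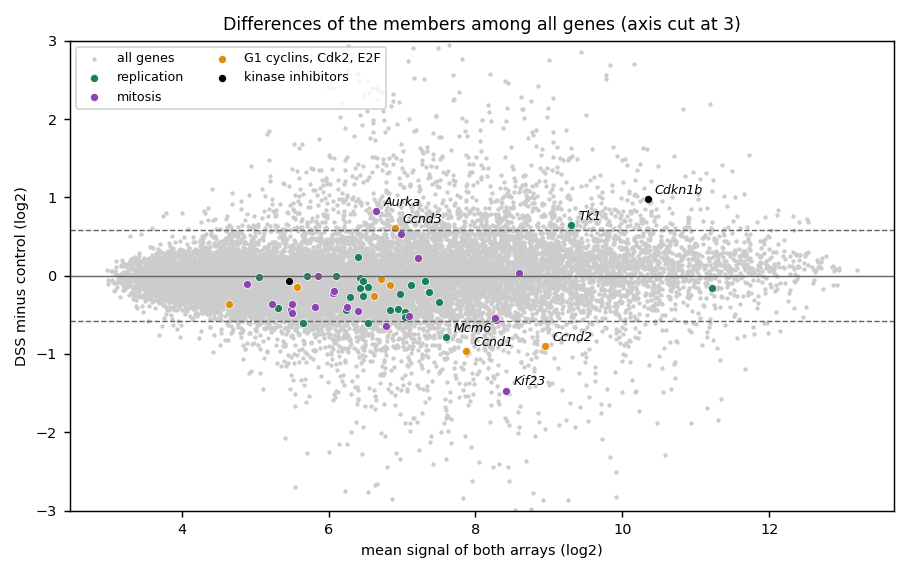
Difference between arrays (y axis, log2 DSS minus control, cut at 3 in both directions) against mean signal (x axis, log2) for all genes (grey) and the 56 members (coloured by role); dashed lines mark 1.5-fold. Kif23, Ccnd1, Ccnd2 and Mcm6 lie lowest among the members, and most members lie between 0 and the lower dashed line.

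The D-type cyclins, which couple growth factor signals to the cycle, differed in opposite directions. Ccnd1 (probe set 10569646) read 7.39 in DSS and 8.36 in control, a difference of -0.96 or 1.95-fold lower. Ccnd2 (probe set 10548105) read 8.49 in DSS and 9.39 in control, a difference of -0.90 or 1.86-fold lower. Ccnd3 (probe set 10445688) read 7.21 in DSS and 6.61 in control, a difference of 0.61 or 1.52-fold higher. All 3 were above the array median on both arrays and kept their direction under both centrings. The E-type cyclin genes Ccne1 and Ccne2, which act with Cdk2 at the start of S phase, had differences of -0.15 and -0.36 from signals under both medians. Cdk2 itself read 6.77 in DSS and 6.89 in control. E2f1, an activating E2F factor, read 6.49 in DSS and 6.75 in control, and E2f8, a repressing one, read 6.70 in DSS and 6.75 in control.

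Among the kinase inhibitors, Cdkn1b was higher in DSS. This gene encodes p27, which binds cyclin-Cdk2 complexes and is abundant in resting cells. Its probe set 10542317 read 10.83 in DSS and 9.86 in control, a difference of 0.97 or 1.96-fold higher, and its other probe set, 10542310, read 9.68 in DSS and 8.58 in control, a difference of 1.10. Both Cdkn1b probe sets thus had the same direction, and 97.6% of all genes had a difference as high as 0.97 or lower. Cdkn1a, which encodes the p53-induced inhibitor p21, was covered by probe set 10443463, which is annotated to 4930567H12Rik as well. That shared probe set read 11.49 in DSS and 10.77 in control, a difference of 0.72 that cannot be assigned to either gene. Cdkn2c, which encodes the Cdk4 and Cdk6 inhibitor p18, read 5.42 in DSS and 5.49 in control, under both medians.

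Replication and mitotic genes were set against each other as groups. Of all genes, 58.6% were lower and 5.33% were at least 1.5-fold lower. For the 26 replication genes the median difference was -0.22, and 23 (88.5%) were lower, 2 were higher and 3 (11.5%) were at least 1.5-fold lower. For the 20 measured mitotic genes the median was -0.38, and 15 (75%) were lower, 4 were higher and 2 (10%) were at least 1.5-fold lower. The medians differed by 0.16, replication minus mitosis. The groups overlapped widely, from -0.79 to 0.64 for replication and from -1.47 to 0.82 for mitosis, and by the mean the gap was 0.05. The replication genes with an E2F match in their promoter windows (8 genes) had a median of -0.42 and those without (14 genes) one of -0.16, but among all measured genes the medians were -0.05 with a match (508 genes) and -0.06 without (15055 genes). For mitotic genes the medians were -0.38 with a CHR match (12 genes) and -0.40 without (5 genes). The motif letters were chosen after the differences were seen, and a link between motif and difference was not tested.

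**Figure D4:**
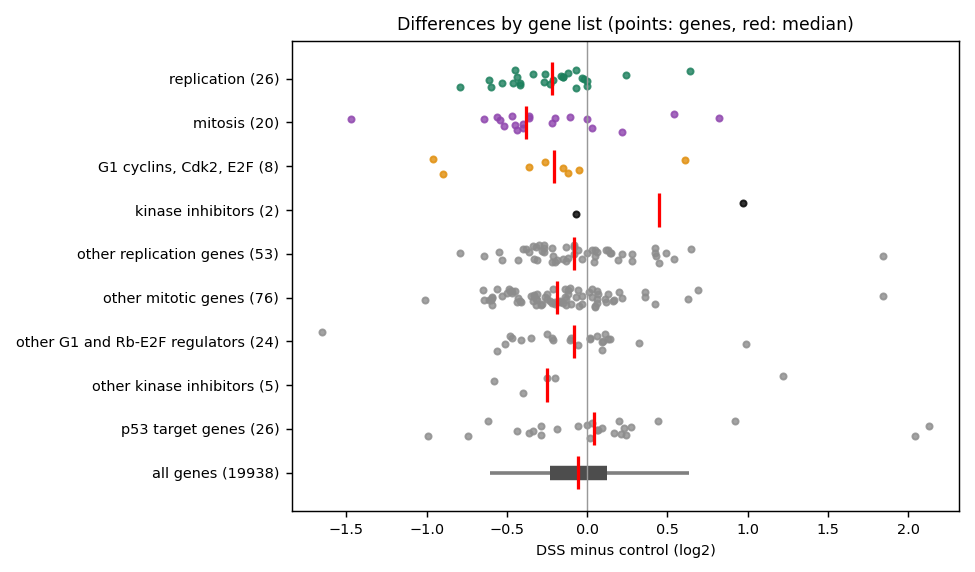
Difference between arrays (x axis, log2 DSS minus control) for each gene (points) of the member groups and of further cell cycle lists, with the number of measured genes in brackets and the median in red. For all genes the thick bar spans the 25th to 75th percentile and the thin line the 5th to 95th. Replication and mitotic genes among the members have medians of -0.22 and -0.38, against -0.06 for all genes. The further replication and mitotic genes have medians of -0.08 and -0.19.

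Further genes of the same processes were counted in the same way. Of 53 further replication genes, 2 (3.77%) were at least 1.5-fold lower, 2 (3.77%) were higher and 49 were within that size. Of all genes, 5.33% were that much lower and 5.76% higher. The further replication genes had a median difference of -0.08, and 60.4% were lower by any amount, against 58.6% of all genes. Among those with bright signals, Chaf1a, a subunit of the histone chaperone that follows the fork, read 5.78 in DSS and 6.41 in control (-0.64). The maintenance methyltransferase gene Dnmt1 read 8.44 in DSS and 8.99 in control (-0.55) and the fork protein gene Wdhd1 read 7.02 in DSS and 7.55 in control (-0.53). In the other direction, Dna2, a nuclease-helicase, read 7.52 in DSS and 5.69 in control (3.57-fold higher), with the control signal under the array median. Rpa3, a subunit of the single-strand binding complex, read 8.25 in DSS and 7.60 in control (0.65), and Dck, deoxycytidine kinase, had a difference of 0.54.

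Of 76 further mitotic genes, 8 (10.5%) were at least 1.5-fold lower, against 5.33% of all genes. At that size 3 (3.95%) were higher, against 5.76% of all genes, and 65 were within it. Their median difference was -0.19, and 71.1% were lower by any amount, against 58.6% of all genes. Signals of 40 of them were under the medians of both arrays. Stmn1, which destabilises microtubules, read 9.53 in DSS and 10.54 in control (2.02-fold lower), the condensin gene Ncapd2 read 5.85 in DSS and 6.50 in control (-0.65), and Trip13, a checkpoint ATPase, had a difference of -0.61. The lamin gene Lmnb1 read 9.98 in DSS and 8.14 in control (3.57-fold higher), the chromatin protein gene Hmgb2 read 11.56 in DSS and 10.88 in control (0.69) and Cks2, a Cdk-binding protein, had a difference of 0.36.

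Of 24 further genes listed as G1 and Rb-E2F regulators, 1 (4.17%) was at least 1.5-fold lower, against 5.33% of all genes. In the other direction 1 (4.17%) was higher, against 5.76%, and 22 regulators were within that size. Their median difference was -0.08. The lower gene was Wee1, the kinase that holds Cdk1 inactive, which acts on entry into mitosis rather than in G1. Wee1 read 6.08 in DSS and 7.73 in control, a difference of -1.65 or 3.14-fold lower. Cdk6, a partner of D cyclins, and Skp2, part of the ligase that degrades p27, had differences of -0.56 and -0.51. Lin54, the MuvB subunit that binds CHR elements, read 9.22 in DSS and 8.23 in control (0.99), and Lin9, another MuvB subunit, and Rbl1, the Rb relative p107, had differences of 0.32 and 0.14. Of 5 further inhibitors, Cdkn2d, which encodes the Cdk4 and Cdk6 inhibitor p19, read 7.13 in DSS and 5.91 in control (2.33-fold higher). Cdkn3, a phosphatase of Cdks, had a difference of -0.40, and the remaining 3 had differences of -0.58 to -0.20.

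Targets of p53, the factor that induces Cdkn1a, went both ways. Of 26 measured, 3 (11.5%) were at least 1.5-fold higher, against 5.76% of all genes, 3 (11.5%) were lower, against 5.33%, and 20 were within that size. By any amount, 16 were higher and 10 (38.5%) lower, while 58.6% of all genes were lower. The median difference was 0.04 for these targets and -0.06 for all genes. Gadd45a, a stress gene that restrains growth, read 9.71 in DSS and 7.59 in control (4.36-fold higher), the death receptor gene Fas read 8.49 in DSS and 6.45 in control (4.11-fold higher), and the Polo-like kinase gene Plk3 had a difference of 0.92. Sesn1, a sestrin, read 8.31 in DSS and 9.30 in control (-0.99), and the polymerase gene Polk and the kinase gene Plk2 had differences of -0.74 and -0.62. Genes of macrophage growth factor signalling were mixed as well, since 2 of 12 (16.7%) passed 1.5-fold upwards and 3 (25%) downwards. Their median difference was -0.08. Csf1r, the receptor that macrophages need for survival and division, read 10.86 in DSS and 11.52 in control (-0.66). Maf, a factor that limits macrophage self-renewal, read 7.09 in DSS and 8.14 in control (-1.05), and the growth factor gene Pdgfc had a difference of -1.90. Csf3r, the neutrophil growth factor receptor, was 4.51-fold higher, Csf2rb, a shared receptor chain for GM-CSF, had a difference of 0.85, and Csf2rb2 one of 0.49.

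**Figure D5:**
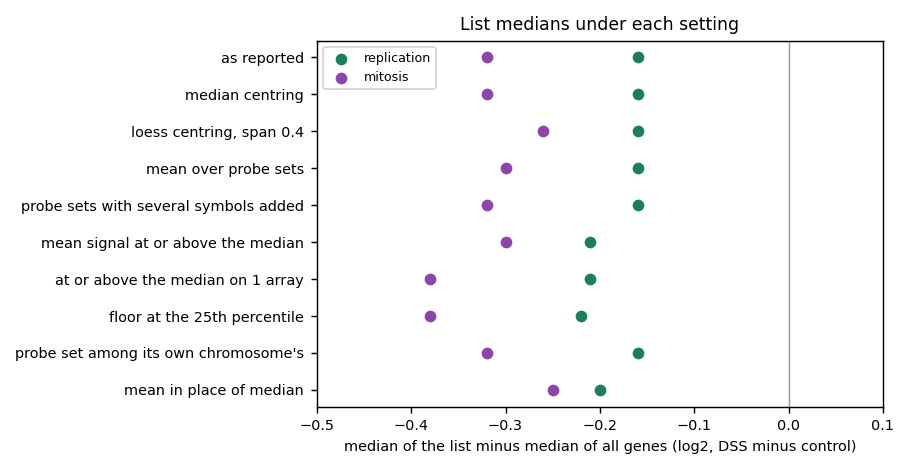
Median of the replication (green) and mitotic (purple) genes minus the median of all genes (x axis, log2 DSS minus control) under each processing setting (rows); the last row uses means in place of medians. Both groups lie below all genes in each setting shown, at -0.16 for replication and -0.32 for mitosis as reported.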

How the data were processed

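The authors deposited log2 values of 35556 probe sets for 2 arrays. Per the submitters' processing notes they come from RMA (background correction, quantile normalisation and median polish), whose version and settings those notes leave out. Dim probe sets are compressed by RMA, and quantile normalisation takes out a global shift over the probe sets it is run on. Among the 23410 listed probe sets the array medians still differed by 0.11. The deposited values were not rescaled. The table holds no detection calls, so dim signals cannot be told from background, and a hybridisation batch cannot be told apart from the treatment. The number of arrays limits the precision.

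In the platform annotation 21789 probe sets carry a single symbol and 1621 carry several. Of the single-symbol sets, the brightest by mean signal stood for a gene, with no filter on dim genes, and array medians rest on the 23410 listed probe sets. All 56 measured members matched RefSeq (GRCm38.p6) by Entrez identifier. Differences are log2 DSS minus log2 control, counted at 1.5-fold and 2-fold, and folds are these differences taken off the log scale. The members and lists were chosen with earlier results of these data known, and motif letters after the differences were seen. All measured members are named, and of each further cell cycle list the 3 highest and 3 lowest genes with a mean signal at or above the mean of the array medians. For lists of other cell types, counts, summed signals and defining markers are given in place of these genes. A further 15 lists (356 entries) covered related genes and other cell types. Alternatives covered scaling, probe set choice, filters, a floor and the size counted. Steps were tested on simulated data. Python 3.11.15, numpy 2.4.6, pandas 2.3.3, statsmodels 0.14.6 and matplotlib 3.10.9 were used.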

Additional observations from a re-analysis of the deposited data

How the results depend on the processing

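No value here has a replicate error, so a median counts as changed when it moved by over 0.1. Median centring gave medians of -0.11 for replication and -0.27 for mitotic genes and 4 members at least 1.5-fold lower, against 3.70% of all genes. Loess centring gave -0.26 for mitotic genes. With means in place of medians, mitotic genes had -0.28 and the gap between replication and mitotic genes was 0.05. At 2-fold, 1 member was lower and 0 were higher. The other settings (mean over probe sets, shared probe sets, filters on dim genes, a floor at the 25th percentile) moved no median by over 0.1 and no count by over 1.5 times. Most values of single members could hardly move, since filters leave a kept gene's value as it is and 52 members have 1 probe set. Median centring moves every value by 0.11, under the pooled SD between probe sets (0.27). Of 424 values of single members under these alternatives, 421 moved by no more than that SD. The exceptions were Top2a (-0.02) and Tk1 (0.25) with the mean over probe sets, and Tk1, which turned to -0.14 when its probe set with neighbours on another chromosome was left out, a setting chosen after the data were seen. In each centring 7 members with differences of at most 0.07 changed sign. They are counted by their sign without centring, and their direction depends on the centring: Mcm10, Gmnn, Gins1, Uhrf1, E2f8 and Cdkn2c (both centrings), Prim1 (median) and Mki67 (loess). No paired analysis was possible because each group has 1 array.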
